A study of Gallus gallus with 16 samples.

Results

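The genes described here are 53 kinases and kinase-associated signalling genes of chicken abdominal fat, out of 17854 loci with an estimated count. They were chosen from the list of genes that the study called different between its high-growth (HG) and low-growth (LG) lines. A gene was taken when its name in that list held kinase as a whole word and its larger count was at least 10. The diacylglycerol kinase gene DGKQ, the receptor gene FLT4 and symbols beginning with CDK, PLK, AURK, BUB, CDC or CCN were left out. Of 71 names with the word, 53 met these conditions, 14 had no row among the counts used here, and 3 were left out by symbol (DGKQ, CDC42BPA and BUB1B). PFKFB1, which makes and breaks fructose 2,6-bisphosphate, had a count of 0 in both lines, although the study had called it different. The counts used here thus do not match the study's list for PFKFB1. The members nearest above the count limit were IKBKE, with a larger count of 22.3, and MAP3K8, with 26.6. The list had been ordered by fold and was used here without its last rows, where the genes with the largest LG excess stand, so such genes cannot be among the members. MAPK11, MAP2K6, PTK2B, SIK1 and ULK2 were all present.

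HG and LG are meat-type chickens of Bresse-Pile origin that were selected in opposite directions on body weight at a juvenile and an adult age. RNA came from abdominal fat of fed cockerels at 7 wk, 4 from HG and 4 from LG, and each bird's library was sequenced in 2 lanes. All chicks were vaccinated against Marek's disease. The lines were housed apart in the first weeks of life, when LG birds received their pellets crushed, and shared floor pens from then on. The characteristics field and the treatment protocol of the samples name HG for every bird, while the titles and source names give both lines. The line was taken from the sample titles. The column headers of the count table name the line. For each gene and line there is 1 estimated count for the line as a whole, with a variance from the authors' statistical model. The sources used here do not say if this count is a sum or a mean over birds. No value per bird was used, so overlap between birds of the lines cannot be read from these data.

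Kinases move a phosphate from ATP to a protein, a lipid or a small metabolite. In signalling they work in cascades, in which a receptor or second messenger switches on one kinase that phosphorylates the next, while scaffolds, anchors and regulatory subunits hold them in place or keep them silent. In fat cells, insulin acts through phosphoinositide 3-kinase and mTOR towards lipid storage, whereas catecholamines and glucagon act through cAMP and protein kinase A towards lipolysis. Stress and cytokine signals run through the p38 and JNK branches of the MAP kinases.

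The study's own comparison of HG with LG chose these genes, so the HG/LG values below are a description and their direction is not independent evidence. Ratios are log2 values of HG over LG after a pseudocount of 1 was added to both counts, and a positive ratio means a higher count in HG. Each 95% interval was made from the deposited model variances and does not cover how the counts were scaled between the lines. All counts together came to 4421254 for HG and 3365950 for LG, and the median ratio of all 10484 genes tested was 0.26, here called the median gene. These totals are far below the mapped reads that the paper gives for any single bird. The sources used here do not say why, so the counts cannot be taken as numbers of reads sequenced. Counts were not divided by gene length, so they show a gene between the lines and not 1 gene against another. In whole tissue, fewer cells of a type and less RNA per cell cannot be told apart.

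The kinase genes fell on both sides. The count was higher in HG in 32 of them and in LG in 21. HG was thus the higher line in 60.4% of the members, while over all genes tested it was the higher line in 75.3%. Over the 1443 genes tested from the rows of the study's list used here, the source of the members, it was the higher line in 63.7%. The median ratio of the members was 0.57, against 0.26 over all genes tested and 0.68 over the listed genes tested. Relative to the median gene the median of the members was 0.31, and 31 members stood above that gene and 22 below it. Of all genes tested, 5202 stood above it and 5282 below it, so the 75.3% holds for the counts as deposited. Of the listed genes tested, 891 stood above it and 552 below it. Members were sparse near the median gene. No member had a ratio between that of SRPK1, at 0.01, and that of RPS6KA5, at 0.49, while 48.3% of all genes tested lay in this interval. The choice of genes that had been called different sets such a gap. In 13 members the counts differed at least 2-fold, with HG higher in 10 of them and LG in 3. Over all genes tested 9.53% differed that much, 5.79% with HG higher and 3.74% with LG higher. Over the listed genes tested it was 30.5%, so the choice of the members bears on their count. These 2-fold differences are of the counts as deposited, and their split by line depends on the scaling. The list was also used without its last rows, where the largest LG excesses stand. That cut bears on the 32 and 21, on the median and on the 2-fold split. Relative to the median gene, MAPK8IP1, PRKAR2B, WNK2 and LMTK2 fell under 2-fold on the HG side. On the LG side PTK2B, PDXK and MAPK11 then passed 2-fold.

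**Figure D1:**
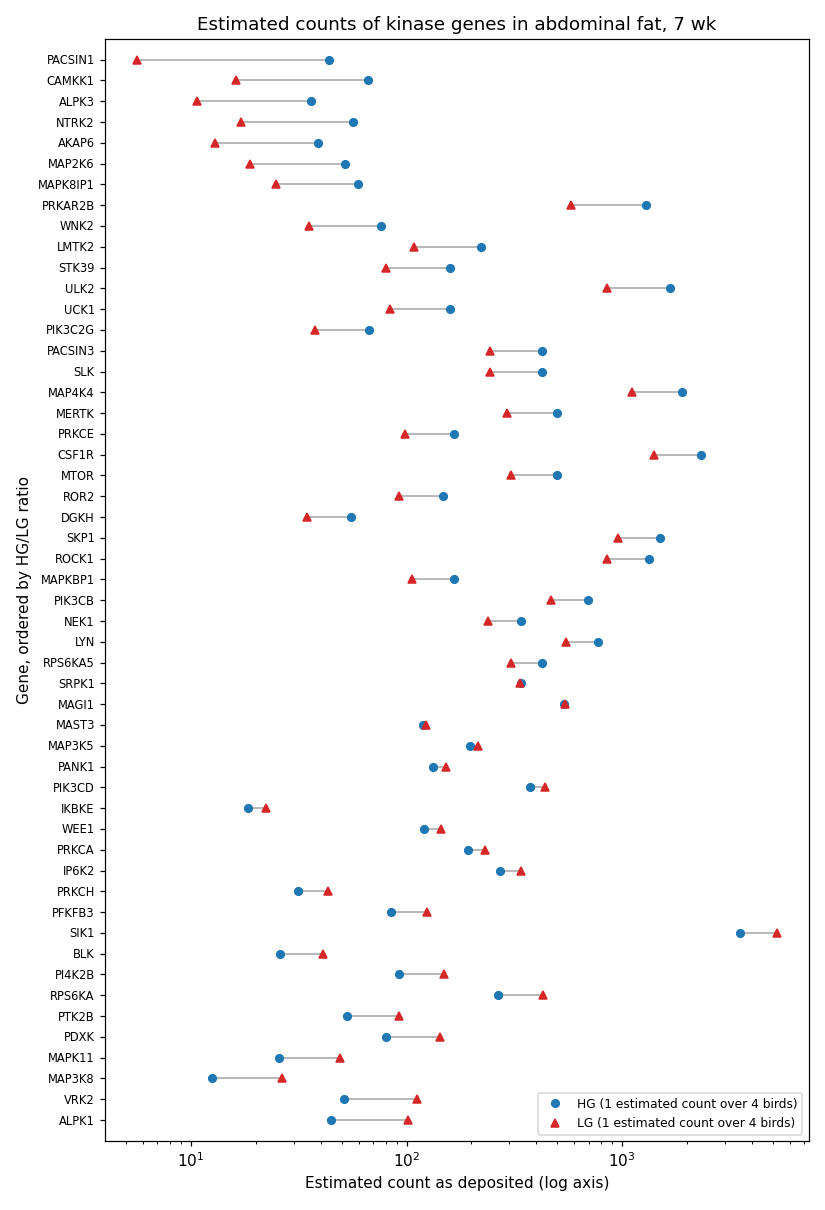
Estimated counts (log axis) of the kinase genes named in the text in HG (blue circles) and LG (red triangles), 1 value per line over 4 birds, ordered by the HG/LG ratio. HG lies to the right in the upper genes and LG in the 21 lower genes, and the symbols nearly coincide for SRPK1 and MAGI1.

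Calls were made from the model variances at an adjusted p of 0.05 or less (Benjamini-Hochberg, over all genes tested) and a fold of at least 1.2. With the deposited counts 2 members were called, PRKAR2B and ULK2, both higher in HG, where 2.93% of all genes tested were called, 2.07% with the higher count in HG and 0.858% in LG. None was called once the ratios were centred on the median gene, where 2.18% of all genes were (0.992% with HG higher and 1.19% with LG higher). The sources used here do not say if that variance belongs to 1 library or to a mean over birds. With the variance divided by the 4 birds of a line, 38 members were called (30 higher in HG and 8 in LG), beside 27.1% of all genes (22.2% and 4.87%). With that variance and centred ratios 34 were called (20 and 14), beside 16.1% (8.24% and 7.9%). Of the 1443 listed genes tested, 13.2% were called with the deposited counts and 7.97% with centred ratios. With the variance divided by 4 these shares were 71.0% and 63.5%. The unadjusted 95% interval of the ratio lay above 0 in 20 members and below 0 in 3, beside 8.68% and 2.72% of all genes. It lay above the median gene in 4 members and below it in 7, beside 3.79% and 4.01%. The members were chosen from this comparison, so nothing is read from these counts.

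**Figure D2:**
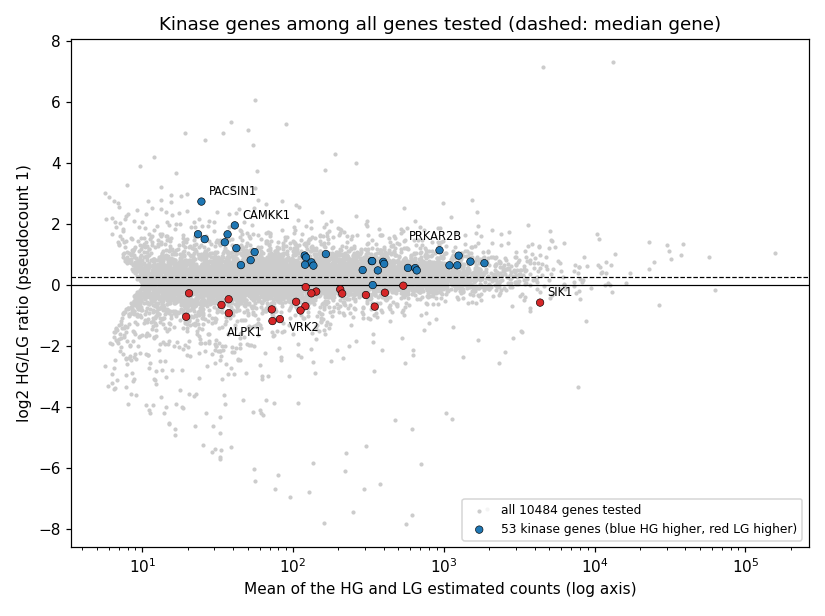
Log2 HG/LG ratio against the mean of both estimated counts (log axis) for all 10484 genes tested (grey) and the 53 kinase genes (blue, HG higher; red, LG higher). The dashed line is the median gene at 0.26; PACSIN1 stands highest at 2.75, and SIK1 has the largest count of the kinase genes and stands at -0.57.

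Genes of the cAMP and calcium arm had some of the largest HG excesses. PRKAR2B, the type II beta regulatory subunit that holds protein kinase A inactive until cAMP binds, was counted at 1291 in HG against 581 in LG. Its ratio of 1.15 (95% interval 0.60 to 1.70) stood above that of 95.9% of the genes tested. CAMKK1, a calcium/calmodulin-dependent kinase that phosphorylates other calmodulin kinases, had 66.0 in HG and 16.1 in LG, with a ratio of 1.97 (0.65 to 3.29). In the counts as deposited both genes were thus more than 2-fold higher in HG, PRKAR2B at a count high enough for a narrow interval. Relative to the median gene the ratio of PRKAR2B was 0.89, under 2-fold, and that of CAMKK1 was 1.71. AKAP6, an anchoring protein that tethers protein kinase A at membranes of muscle and nerve cells, had 38.9 and 13.0, with a ratio of 1.52 (0.07 to 2.96). SIK1, a salt-inducible kinase whose gene is induced by cAMP in mammals and which restrains CREB-dependent transcription, was the exception in this arm. Its count was 3507 in HG and 5195 in LG, the highest of the 53 genes in both lines. Its ratio was -0.57 (-1.26 to 0.13), below the median gene and with an interval that reaches past 0. The study's list names this locus SIK2, which the RefSeq gene table holds as a synonym of SIK1.

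Symbols were known only for genes in the rows of the study's list used here. Other genes of a pathway or marker list may have counts that could not be looked up. Those found had already been called different by the study. From a list of 26 genes of the protein kinase A pathway, 4 had a symbol and a count. Beside PRKAR2B and AKAP6, these were PRKAR1B, a type I regulatory subunit, with 227 in HG and 125 in LG (ratio 0.86), and ADCY2, an adenylyl cyclase that makes cAMP, with 6.10 and 18.4 (ratio -1.45). Both regulatory subunits with a symbol and a count were higher in HG, as were 75.3% of all genes tested. Only PRKAR2B passed the test, and none did with centred ratios.

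Kinases around AMP-activated protein kinase, the cell's sensor of low energy, lay on both sides. ULK2, a kinase that starts autophagy, had 1663 in HG and 847 in LG, and its ratio was 0.97 (0.41 to 1.53). NUAK2, a relative of the AMP-activated kinase whose name in the study's list lacks the word, had 48.6 and 10.8 (2.07, with an interval of 0.61 to 3.54). Of 22 genes listed for this family, 4 had a symbol and a count. CAMKK1, NUAK2 and ULK2, 3 of the 4, were higher in HG, near the share of all genes in the counts as deposited, and SIK1 was higher in LG. ULK2 was the one that passed the test, and it did not pass with centred ratios.

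In the MAP kinase cascade 6 of 10 genes had the higher count in HG and 4 in LG, with a median ratio of 0.53. Over all genes tested HG was the higher line in 75.3%. MAP2K6, the kinase that phosphorylates and activates p38, had 51.7 in HG and 18.8 in LG, with a ratio of 1.41 (0.10 to 2.73). MAPK11, the beta isoform of p38, had 25.7 in HG and 49.2 in LG, with a ratio of -0.91 (-2.40 to 0.58). The activating kinase and its substrate lay on opposite sides, by 2.32 on the log2 scale (95% interval of the difference 0.34 to 4.31), a difference that no scaling between the lines changes. This pair, like each related pair below, was chosen after its values had been seen, from genes the study had called different. Such intervals are therefore a description, and nothing is read from whether they hold 0. Both counts were low, and the interval of MAPK11 alone held 0.

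Upstream kinases of the same cascade fell on both sides. MAP3K8, which links Toll-like and tumour necrosis factor receptors to the MAP kinases, had 12.5 in HG and 26.6 in LG, with a ratio of -1.03 (-2.52 to 0.46). MAP3K5, the stress kinase known as ASK1, had 196 and 215 (ratio -0.13). MAP4K4, a STE20-type kinase that in mouse macrophages and fat cells takes part in cytokine responses, had 1898 and 1106 (ratio 0.78), a high count with HG above LG. The list's accession for this gene is held in the RefSeq table under NRK, with MAP4K4 as a synonym, so its identity between the 2 relatives is uncertain.

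Scaffolds of the cascade stood with HG. MAPK8IP1, which assembles the JNK module, had 59.3 in HG and 24.9 in LG, with a ratio of 1.22 (-0.05 to 2.49). MAPKBP1, a JNK-binding protein, had 167 and 106 (0.65). Both scaffolds thus had the higher count in HG, as did 75.3% of all genes tested, and neither passed the test.

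Kinases downstream in the cascade split. RPS6KA5, a nuclear kinase of histone H3 and CREB also called MSK1, had 427 in HG and 304 in LG (0.49). The ribosomal S6 kinase listed only as RPS6KA had 265 and 431, with a ratio of -0.70 (-1.37 to -0.03). The difference between them, a pair also chosen after its values were seen, was 1.19 (0.30 to 2.08). Beyond the members, 2 of the other genes listed for this pathway had a symbol and a count. MAPKAPK3, a p38 substrate kinase, had 132 and 201 (-0.61), and DUSP1, a phosphatase that switches MAP kinases off, had 547 and 603 (-0.14). Of 35 genes listed for the pathway 7 thus had a symbol and a count, all of them from the study's called genes. HG was higher in 2 and LG in 5, beside 75.3% and 24.7% of all genes tested. None passed the test in either scaling.

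Of the insulin, phosphoinositide 3-kinase and mTOR genes with a symbol and a count, 4 of 6 were higher in HG, beside 75.3% of all genes tested. MTOR, the kinase that couples nutrients and insulin to growth, had 499 in HG and 306 in LG (ratio 0.70). Its partners came from a list of 33 pathway genes, of which 6 had a symbol and a count, and stood on the same side. RICTOR, of mTOR complex 2, had 467 and 228 (1.03), and RPTOR, of mTOR complex 1, had 384 and 212 (0.85). EIF4EBP1, the translation repressor that mTOR phosphorylates, was on the other side with 309.0 and 387 (-0.32). RICTOR passed the test with the deposited counts and not with centred ratios, and no other gene of this list passed.

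The catalytic subunits of phosphoinositide 3-kinase differed among themselves. PIK3CB, the widely expressed p110 beta, had 692 in HG and 465 in LG (0.57). PIK3CD, the p110 delta of leukocytes, had 372 and 441 (-0.24). The difference between these paralogs, a pair also chosen after its values were seen, was 0.81 (0.02 to 1.61). The class II enzyme PIK3C2G had 67.2 and 37.5 (0.83).

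Enzymes of other inositol lipids and phosphates had higher counts in LG, with intervals that held 0. PI4K2B, a phosphatidylinositol 4-kinase, had 92.4 in HG and 149 in LG, with a ratio of -0.68 (-1.52 to 0.15). IP6K2, an inositol hexakisphosphate kinase, had 271 and 338 (-0.32, with an interval of -1.01 to 0.37). The diacylglycerol kinase DGKH, which removes the lipid that activates protein kinase C, was higher in HG, at 55.5 and 34.7 (0.66).

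Among protein kinase C isoforms, 3 of 10 listed had a symbol and a count, and none passed the test. PRKCE, a calcium-independent isoform, had 167 in HG and 98.4 in LG (0.75). PRKCA, a calcium-dependent isoform, had 192 and 232 (-0.27), and PRKCH had 31.4 and 43.4, with a ratio of -0.46 (-1.68 to 0.77). PRKCE thus lay on the HG side and both others on the LG side. The difference of PRKCE from PRKCA was 1.02 (-0.03 to 2.08) and from PRKCH 1.21 (-0.26 to 2.68), so both intervals reached 0.

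PACSIN1 and PACSIN3 carry the word kinase because they are substrates of protein kinase C and casein kinase. They bend membranes in endocytosis. PACSIN1 had the largest ratio of the 53 genes, 2.75 (1.08 to 4.41), from counts of 43.7 in HG and 5.65 in LG. PACSIN3, the form of muscle and other peripheral tissue, had 422 and 243 (0.80). With a pseudocount of 10 the ratio of PACSIN1 was 1.78.

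**Figure D3:**
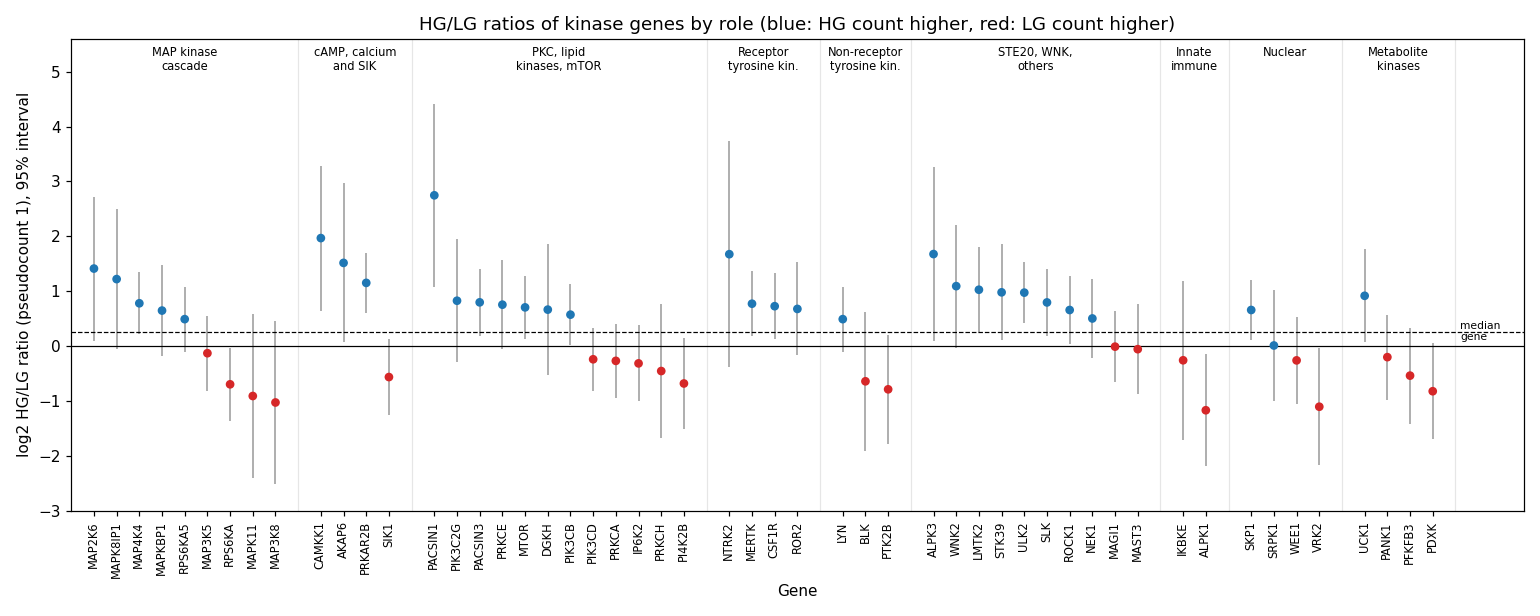
Log2 HG/LG ratio (pseudocount 1) of each kinase gene named in the text, by role, with the 95% interval from the deposited model variances; blue, HG count higher, and red, LG count higher. The dashed line is the median gene at 0.26. All 4 receptor tyrosine kinases lie above it, and both innate immune kinases lie below 0.

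All 4 receptor tyrosine kinases had the higher count in HG, as did 75.3% of all genes tested. NTRK2, the receptor of brain-derived neurotrophic factor, had 56.5 in HG and 17.0 in LG, with a ratio of 1.67 (-0.38 to 3.73). CSF1R, the receptor on which macrophages depend for survival, had 2318 and 1401 (0.73). MERTK, with which macrophages recognise dying cells, had 499.6 and 292 (0.77). The macrophage receptors thus stood side by side, with a difference of -0.05 (-0.88 to 0.79). ROR2, a receptor of WNT5A, had 148 and 92.3 (0.68). EGFR, FGFR3, FGFR4 and KIT, receptor kinases of the same list whose names lack the word, had no row among the counts used here.

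Kinases of other blood cell lineages fell on both sides. LYN, a SRC-family kinase of myeloid and B cells, had 773 in HG and 550.3 in LG (0.49). BLK, the SRC-family kinase of B cells, had 25.9 and 41.1, with a ratio of -0.64 (-1.91 to 0.63). Their difference was 1.13 (-0.27 to 2.54), and neither passed the test. PTK2B, a calcium-activated relative of focal adhesion kinase abundant in blood cells and brain, had 52.7 and 91.9, with a ratio of -0.79 (-1.79 to 0.21).

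Leukocyte markers were likewise split. Of 10 macrophage and leukocyte markers, 5 had a symbol and a count, and these summed to 4846 in HG and 4469 in LG. Without the members CSF1R and MERTK, the remaining 3 were all higher in LG. SPI1, the transcription factor of myeloid cells, had 212 and 306, the integrin gene ITGB2 had 655 and 750.4, and the actin-bundling LCP1 had 1161 and 1719.6. No leukocyte marker passed the test. BLK was the only one of 7 B cell markers with a symbol, so the counts of the others could not be looked up. The part of leukocytes in the values of PIK3CD, PTK2B, LYN, BLK, CSF1R and MERTK was not tested.

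Serine/threonine kinases of the cytoskeleton, ion transport and trafficking were higher in HG in 8 of 10 genes, ULK2 and ALPK3 among them. In the counts as deposited this is near the 75.3% of all genes tested. Of the 10 genes, 8 also stood above the median gene, beside 5202 of all 10484 genes tested and 891 of the 1443 listed genes tested. The median ratio of the 10 genes was 0.88, against 0.26 over all genes tested and 0.68 over the listed genes tested. The 10 genes were chosen from genes the study had called different, so nothing is read from these shares and medians. ROCK1, a kinase that drives actomyosin contraction, had 1333 in HG and 846 in LG (0.66). SLK, a STE20-like kinase, had 425 and 245 (0.79). WNK2 and STK39 belong to one module, in which WNK kinases activate STK39, also known as SPAK, to phosphorylate cation-chloride cotransporters. WNK2 had 76.1 and 35.2, with a ratio of 1.09 (-0.03 to 2.21). STK39 had 159 and 80.1, with a ratio of 0.98 (0.10 to 1.85). In the counts as deposited both kinases of the module were thus about 2-fold higher in HG, and neither passed the test. Relative to the median gene the ratio of WNK2 was 0.83 and that of STK39 was 0.72.

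LMTK2, a membrane-bound kinase of endosomes, had 222 in HG and 108 in LG, with a ratio of 1.03 (0.25 to 1.80). NEK1, a kinase of cilia and DNA repair, had 339.5 and 239.5 (0.50). Level counts were found for MAGI1, a junctional scaffold with an inactive guanylate kinase domain, at 536 and 541 (-0.01), and for MAST3, a microtubule-associated kinase, at 119 and 124 (-0.06). Although both are in the study's list, their counts differed 1.01-fold and 1.04-fold. Relative to the median gene they stood at -0.27 and -0.32.

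The alpha-kinases, a family unlike the usual kinases in sequence, lay at opposite ends. ALPK3, known from heart and skeletal muscle, had 36.2 in HG and 10.6 in LG, with a ratio of 1.68 (0.09 to 3.27). ALPK1, which senses a bacterial sugar in innate immunity in mammals, had 44.5 and 101, with the lowest ratio of the 53 genes, -1.17 (-2.19 to -0.15). The difference between them was 2.85 (0.96 to 4.74), the largest of the 9 differences between related genes computed here, all of which were chosen after the values had been seen. IKBKE, the other innate immune kinase, which acts in interferon induction, had 18.5 and 22.3 (-0.26).

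Skeletal muscle markers were also higher in HG, beside ALPK3, AKAP6 and PACSIN3. Of 9 listed, 6 had a row and summed to 1428 in HG and 534 in LG. Most of both sums was ACTA1, with 1144 and 526, which did not pass the test in either scaling. MYBPC1 had 83.8 in HG and was listed at 0 in LG, MYOM2 had 109 and 7.24 and passed the test in both scalings, and TNNC2 was listed at 0 in both lines. The paper places TNNC2 among its genes with the largest HG excess, so the counts used here do not match its result for TNNC2. The part of muscle RNA in the values of ALPK3, AKAP6 and PACSIN3 was not tested.

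In the nuclear group 2 of 4 genes were higher in each line, while HG was the higher line in 75.3% of all genes tested. The 2 on the HG side were SKP1, which is not a kinase, and SRPK1, with almost equal counts. Relative to the median gene the kinases SRPK1, WEE1 and VRK2 stood at -0.25, -0.52 and -1.37. VRK2, a relative of the vaccinia virus kinase, had 51.5 in HG and 112 in LG, with a ratio of -1.11 (-2.17 to -0.04). WEE1, which holds back entry into mitosis, had 120.1 and 144 (-0.26). SRPK1, which phosphorylates splicing factors, had 339 and 337 (0.01), and it is the only member whose side changed when ratios were centred on the median gene or scaled to equal totals. SKP1, a subunit of ubiquitin ligases and not a kinase, had 1503 and 953 (0.66).

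Kinases of small metabolites were higher in LG in 3 of 4 genes, beside 24.7% of all genes tested and 524 of the 1443 listed genes tested. None of the 4 passed the test in either scaling, and the intervals of the 3 held 0. PDXK, which makes active vitamin B6, had 80.6 in HG and 144 in LG, with a ratio of -0.83 (-1.70 to 0.05). PFKFB3, which makes the glycolytic activator fructose 2,6-bisphosphate, had 85.2 and 124, with a ratio of -0.54 (-1.41 to 0.33). PANK1, which starts coenzyme A synthesis, had 132 and 153, with a ratio of -0.20 (-0.98 to 0.57). UCK1, a uridine-cytidine kinase, was the exception at 159.7 and 84.2, with a ratio of 0.92 (0.07 to 1.76).

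Not every gene whose name holds the word is a kinase. In the 45 genes that encode kinases the count was higher in HG in 25 and in LG in 20, with a median ratio of 0.49. In the 8 that encode substrates, anchors, scaffolds or subunits (PRKAR2B, AKAP6, MAPK8IP1, MAPKBP1, PACSIN1, PACSIN3, SKP1 and MAGI1) it was higher in HG in 7, with a median of 0.97. Over all genes tested HG was the higher line in 75.3%. The groups of kinases and of other genes were separated after the values were known. Names that hold kinase inside a longer word, which the rule did not take, gave PLAU, the urokinase-type plasminogen activator, with 164 and 80.5 (1.01), and PFKP, SHPK and RBKS, which had ratios of -0.08, -0.07 and -0.30.

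The model spread enters any call between the lines and is given as a description. The relative standard deviation, the square root of the deposited variance over the count, had a median of 17.8% in HG and 21.9% in LG over the members, against 20.2% and 24.6% over all genes tested. It was larger in LG in 43 of 53 members (81.1%), and in 90.6% of all genes tested. Among members with the higher count in HG it was larger in LG in 32 of 32, and among those with the higher count in LG in 11 of 21. Relative spread falls with count at low and middle counts, so the split by the higher line itself bears on these numbers, and nothing is read from them. At the highest counts it rose again in LG. The median there in genes of like count was 15.6% at ULK2 and 22.2% at SIK1. In the plot of spread against count, low counts carried the larger relative spread in both lines.

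Most members lay on the trend of spread with count, and a few stood above it. In LG the spread of SRPK1 was 30.6%, against a median of 16.7% in genes tested whose LG count was within 1.2-fold of its own. NTRK2 had 68.4% against 42.9%, and MAPK11 had 39.0% against 30.3%. MAGI1 had 19.7% against 15.7%. These 4 were the members with more than 1.2 times the median spread of genes of like count in LG. In HG there were also 4, NEK1 (17.7% against 13.5%), SRPK1 (18.7% against 13.5%), NTRK2 (34.0% against 26.2%) and RPS6KA (17.8% against 14.7%). SRPK1, the gene with almost equal counts, thus had one of the widest spreads for its level in both lines. SIK1, at the highest counts, had 12.8% in HG and 20.9% in LG, close to the medians of 12.9% and 22.2% in genes of like count.

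**Figure D4:**
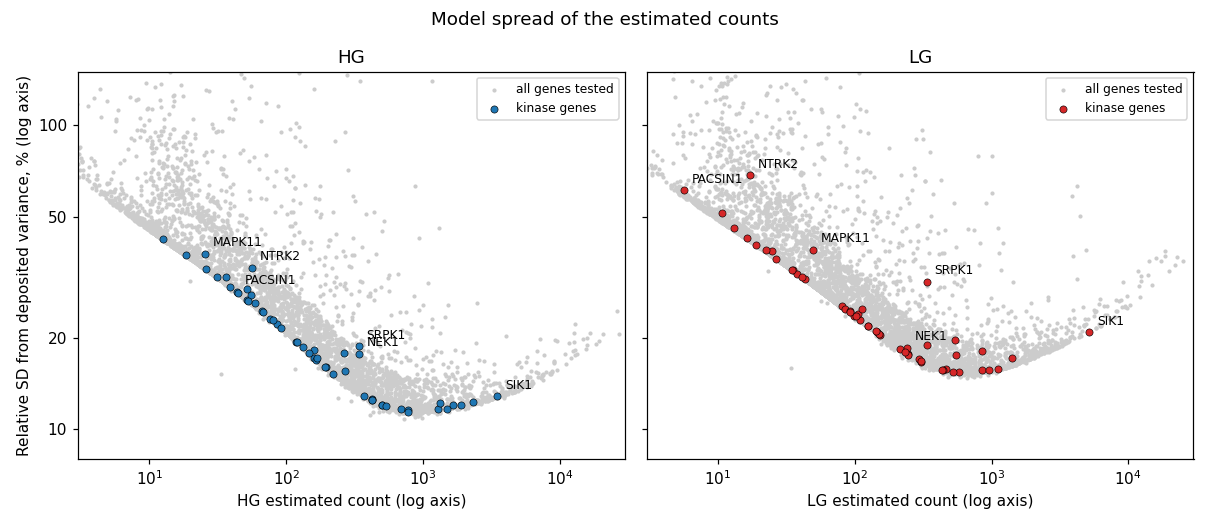
Relative standard deviation from the deposited model variance (percent, log axis) against the estimated count (log axis) in HG (left) and LG (right), for all genes tested with values inside the axes (grey) and the 53 kinase genes (coloured). Most kinase genes lie on the lower edge of the cloud; SRPK1 in LG, at 30.6%, and NTRK2 in LG, at 68.4%, stand above genes of like count.

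The adipocyte markers that could be looked up had counts in both lines, at levels that differed between the lines. Of 9 adipocyte markers 3 had a symbol and a count. PPARG, the regulator of fat cell formation, had 1774 in HG and 909.9 in LG, SCD, which desaturates fatty acids, had 26156 and 162, and PNPLA2, the lipase that opens triglyceride breakdown, had 5366 and 12188. Of 7 endothelial markers 2 had a symbol and a count, CDH5 at 4494 and 2611 and EMCN at 343 and 178. Both were on the HG side, as were 75.3% of all genes tested. Of 9 hepatocyte markers 1 had a symbol and a count, SERPINC1, the antithrombin gene. It had 4.40 in HG and 64.7 in LG, with a ratio of -3.61 (-6.37 to -0.84), and it did not pass the test. The paper places the hepatocyte markers ALB, FGA, FGB and FGG among its genes with the largest LG excess. They were outside the rows of the list used here. The part of cell composition in the kinase values was not tested.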

How the data were processed

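The 7-wk abdominal fat RNA (4 birds of each line) was sequenced with a stranded mRNA kit. Per the submitters' processing notes, the authors used TopHat 1.3.3, Bowtie 0.12.7 and Cuffdiff 2.0.2; the paper's methods name the Galgal4 genome. The authors deposited, for each locus and line, an estimated count (not whole, not divided by length) with its model variance. They also deposited 2 variance terms, named for dispersion and for uncertain assignment of reads to transcripts. These terms did not always add up to the variance. The dispersion term was within 1% of the variance in both lines in 37 of the 53 members. How counts were scaled between lines is not given in the sources used here.

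The test took the 10484 loci whose status was OK, whose larger count was 10 or more and whose smaller count was above 0. Two-sided p-values came from the normal distribution of the log ratio without pseudocount, divided by a delta-method standard error, and were adjusted over all these loci (Benjamini-Hochberg). Printed ratios have a pseudocount of 1, so that at low counts their intervals are narrower than the test's error. The procedure was tested on simulated data, drawn with the same spread that the test was given. Such data cannot tell if the deposited variance belongs to 1 library or to a mean over birds. Alternatives were centred ratios, equal totals, other count minimums, pseudocounts, variances, fold limits and statuses.

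Symbols came from the study's list of called genes, of which 1998 rows with 1993 identifiers were used; 1511 identifiers had a row. Of 53 member symbols, 50 were in the RefSeq gene table, whose coordinates were not used. The members, role groups and gene lists were chosen with earlier results of these data known. Members were to be named by role, and values of some are not reported here. Intervals were to be given for MAPK11, MAP2K6, PTK2B, SIK1, ULK2, PRKAR2B and the 12 largest and 12 smallest ratios. No sequences were printed. Calculations used Python 3.11.15, pandas 2.3.3, numpy 2.4.6, scipy 1.17.1 and matplotlib 3.10.9.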

Additional observations from a re-analysis of the deposited data

How the results depend on the processing

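Each line has 1 value per gene, so single birds could not be left out, and intervals rest on the authors' model. Low estimated counts limit the genes under 50 most (8 members by their larger count). The counts are far below the paper's mapped reads, so this limit is not one of sequencing depth alone. No paired analysis was possible because no value per bird was used. Each of the 53 ratios stayed within its 95% interval with centring, equal totals and a pseudocount of 0 or 10, and only SRPK1 changed side, with centring and with equal totals. The 2 members called with HG higher became 0 with centred ratios, 0 with equal totals, 1 at a minimum fold of 2, 30 with the variance divided by 4, and 20 with both that variance and centring, the last a setting chosen after seeing the data. The 0 called with LG higher became 8 with the variance divided by 4, and 14 with both. Over all loci, the 217 called with HG higher became 104 with centring, 73 with equal totals, 2330 with the variance divided by 4 and 864 with both, and the 90 called with LG higher became 163 with equal totals, 511 with the variance divided by 4 and 828 with both. At a count minimum of 50, the genes higher in LG were 2 in the MAP kinase cascade, 1 among non-receptor tyrosine kinases and 1 among innate immune kinases, since fewer genes remained. The nuclear genes higher in HG were 1 with centring and with equal totals.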
